A study of Mus musculus with 31 samples.

Results

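The Cyp2 genes encode the largest family of cytochrome P450 monooxygenases in the mouse, and their RNA was followed here in the distal colon of mice with and without E171. A probe was taken as a member when its gene name on the array was Cyp2 with 1 letter and a number, which leaves out the mitochondrial and other families whose names begin with Cyp20 to Cyp27. This gave 49 genes of 13 subfamilies on 69 probes, out of 24812 genes on 56605 probes. Of these, 41 genes on 52 probes passed the filter on dim probes, with 13 of 16 Cyp2c genes, all 10 Cyp2d genes, all 4 Cyp2a genes, 4 of 6 Cyp2j genes and 3 of 5 Cyp2b genes. Cyp2e1, Cyp2f2, Cyp2r1, Cyp2s1, Cyp2t4, Cyp2u1 and Cyp2w1 each stand alone in their subfamily and passed as well.

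P450 enzymes of this family sit in the endoplasmic reticulum, take electrons from the reductase encoded by Por and insert an oxygen atom into drugs, carcinogens, fatty acids, steroids and vitamin D. Transcription of many members is driven by the nuclear receptors CAR and PXR and by other transcription factors that the gut epithelium shares with the liver. In the intestine they are found mostly in the absorptive epithelium, where members of Cyp2c and Cyp2j oxidise arachidonic acid to epoxy and hydroxy fatty acids. Azoxymethane, the carcinogen given to these mice, is itself activated by a P450, with Cyp2e1 as its best known activator in the liver.

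E171 is food-grade titanium dioxide. BALB/c mice of both arms received azoxymethane (AOM) and dextran sodium sulphate (DSS), the chemical model of colorectal cancer. Mice of the CRC + E171 arm also received 5 mg/kg bw/day of E171 by gavage and those of the CRC arm the vehicle, for 2, 7, 14 or 21 days, and each day had its own CRC group. Total RNA of the distal colon was hybridised to 1 one-colour Agilent array per mouse, 31 in all, with 2 males and 2 females in each of the 8 groups except CRC at 21 days, which held 1 male and 2 females. The samples were pieces of bulk tissue, so fewer cells of a type and less RNA per cell cannot be told apart.

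A level is given below as a log2 signal, that is, the log2 of the background-subtracted intensity minus the array's 75th percentile, so 0 lies at that percentile and levels of different probes are not compared. A fold change is CRC + E171 over CRC of the same day, from a limma model over all 8 groups. A gene was called when the linear fold change was at least 1.5 and the unadjusted limma p was under 0.05. At a log2 fold change of 1.5, the scale on which the methods write this threshold, 0, 15, 3 and 0 Cyp2 genes rose at 2, 7, 14 and 21 days, against 0.237%, 1.86%, 0.707% and 0.111% of all genes, and 0 Cyp2 genes fell. Adjusted p-values were adjusted over all 19796 genes tested. The exact permutation test over the arrays of a day cannot give a two-sided p below 0.0286.

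Between 65.8% and 77.8% of an array's probes were well above background, and precision is set by how few arrays each group has. Some arrays stood apart in lists of cell type markers, as medians over each list after every gene was set to a mean of 0 over the 31 arrays. In CRC at 7 days the colonocyte list of 12 genes lay at -5.56 in male 1 and -3.13 in male 2, and in CRC + E171 at 14 days it lay at -1.67 in male 2, against -0.16 to 1.51 on the other arrays. The neutrophil list was highest on the same 3 arrays, at 4.27, 5.38 and 3.91. On 3 other arrays, from CRC + E171 female 2 of 7 days and females 1 and 2 of 14 days, Hoxb13 and Hoxd13, homeobox genes that mark the hind end of the gut, were far below the rest, with Hoxb13 at -7.94, -1.28 and -6.36 against 1.79 or more elsewhere. The array labelled male 2 of CRC at 14 days had Xist at -1.12, within the females' range of -1.83 to -0.23.

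Of the 41 genes tested, 33 passed the filter in all 8 groups, 6 in 2 to 7 groups and 2, Cyp2a22 and Cyp2c50, in 1 group. On all 31 arrays 25 genes were above background. The 8 genes that did not pass were Cyp2b19, Cyp2b23, Cyp2c39, Cyp2c53-ps, Cyp2c54, Cyp2g1, Cyp2j11 and Cyp2j5, which were above background on 0 to 7 arrays. The array name Cyp2c44 stands for the gene now called Cyp2c23.

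**Figure D1:**
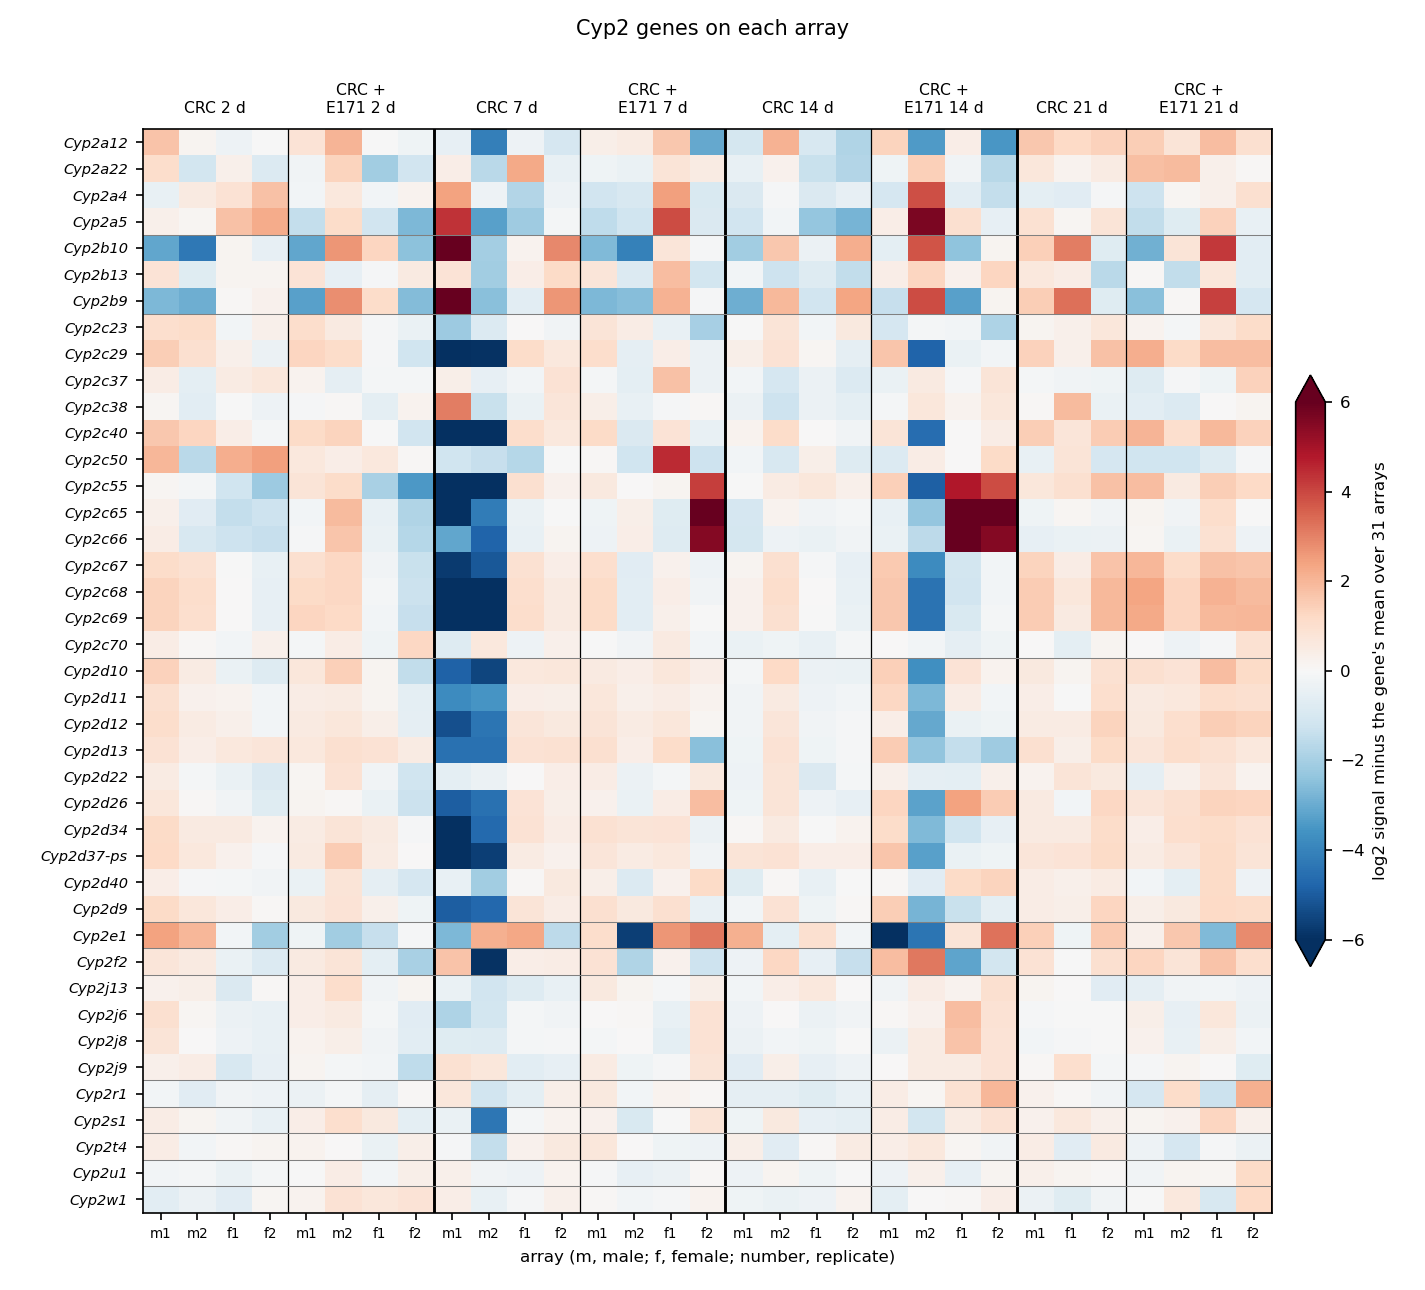
Heat map of the 41 Cyp2 genes (rows, by subfamily) on the 31 arrays (columns, by group and day). Colour is the log2 signal minus the gene's mean over the 31 arrays, limited to 6 in either direction. In 14 of the 23 Cyp2c and Cyp2d genes the 3 lowest arrays are CRC males 1 and 2 of 7 days and CRC + E171 male 2 of 14 days, and the other 9 include Cyp2c37, Cyp2c38, Cyp2c70 and Cyp2d22.

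The sequences of some probes and promoters are shown because members of a subfamily lie side by side in the genome and resemble each other. In the mouse genome build mm9 the tested Cyp2c probes lie on chromosome 19 and the Cyp2d probes on chromosome 15. The probe of Cyp2c40 spans chr19:39861388-39877026, so it joins separate exons, and the probe of Cyp2c29 lies at chr19:39403642-39403701. Both genes are among those with the largest difference between the sexes at 7 days below.
Cyp2c40: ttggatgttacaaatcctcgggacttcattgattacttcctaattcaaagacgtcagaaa
Cyp2c29: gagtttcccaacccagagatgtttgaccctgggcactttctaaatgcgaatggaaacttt
Among 1314 pairs of probes of different Cyp2 genes, 2 shared a run of 16 bases or more. The probes of Cyp2c67 (chr19:39683429-39683488) and Cyp2c68 (chr19:39763420-39763479) shared the 25 bases below and differed at 4 of 59 aligned bases, so either may take up RNA of the other gene.
Shared by Cyp2c67 and Cyp2c68: AATTCCATCTATATTCCTTCTTATC
The other pair was Cyp2d9 and Cyp2d34, with a shared run of 17 bases. Probes were compared with each other only.

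Promoter windows from 250 bases before to 50 bases after the annotated start were taken from RefSeq (GRCm38.p6) and were present for 39 of the 49 genes and 34 of the 41 tested. The windows of 5 Cyp2c genes named repeatedly below are printed 5' to 3' on the gene's strand, with capitals for 2 motifs on either strand: TATAAA (the TATA box) and CAAAGTCCA (core of a site for hepatocyte nuclear factor 4).
Cyp2c55, chr19:39006769-39007068, plus strand: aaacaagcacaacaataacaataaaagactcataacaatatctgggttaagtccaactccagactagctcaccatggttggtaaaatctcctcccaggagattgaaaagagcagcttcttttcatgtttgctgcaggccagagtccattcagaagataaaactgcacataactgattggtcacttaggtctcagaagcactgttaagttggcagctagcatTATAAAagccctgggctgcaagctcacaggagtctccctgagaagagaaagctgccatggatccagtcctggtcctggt
Cyp2c65, chr19:39060756-39061055, plus strand: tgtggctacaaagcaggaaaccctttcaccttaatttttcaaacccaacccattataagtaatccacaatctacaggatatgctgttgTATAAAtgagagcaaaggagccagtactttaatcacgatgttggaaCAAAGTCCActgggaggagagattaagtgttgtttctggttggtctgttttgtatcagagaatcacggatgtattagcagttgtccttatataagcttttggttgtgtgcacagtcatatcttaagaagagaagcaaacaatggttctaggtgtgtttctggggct
Cyp2c66, chr19:39113648-39113947, plus strand: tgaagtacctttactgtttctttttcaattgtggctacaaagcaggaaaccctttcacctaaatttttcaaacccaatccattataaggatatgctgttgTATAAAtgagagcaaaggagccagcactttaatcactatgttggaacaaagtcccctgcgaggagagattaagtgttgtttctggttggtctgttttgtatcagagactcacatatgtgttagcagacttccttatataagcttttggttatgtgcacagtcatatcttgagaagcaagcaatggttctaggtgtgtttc
Cyp2c40, chr19:39812765-39813064, minus strand: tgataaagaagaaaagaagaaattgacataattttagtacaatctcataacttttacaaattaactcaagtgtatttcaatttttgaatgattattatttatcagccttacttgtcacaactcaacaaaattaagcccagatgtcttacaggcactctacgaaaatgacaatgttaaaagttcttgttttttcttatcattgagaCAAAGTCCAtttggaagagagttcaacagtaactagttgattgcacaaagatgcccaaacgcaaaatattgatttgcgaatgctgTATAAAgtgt
Cyp2c68, chr19:39741052-39741351, minus strand: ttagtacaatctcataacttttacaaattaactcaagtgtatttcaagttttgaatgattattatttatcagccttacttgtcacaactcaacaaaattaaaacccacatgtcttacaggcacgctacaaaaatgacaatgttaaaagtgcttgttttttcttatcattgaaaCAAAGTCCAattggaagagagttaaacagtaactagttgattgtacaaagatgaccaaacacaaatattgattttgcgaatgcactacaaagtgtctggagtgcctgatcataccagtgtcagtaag
CAAAGTCCA was found in 6 of 13 Cyp2c windows (Cyp2c40, Cyp2c65, Cyp2c67, Cyp2c68, Cyp2c69 and Cyp2c70), in 0 of 5 Cyp2d windows and in 0.479% of all 32544 windows of this length. TATAAA was found in 10 of 13 Cyp2c and 5 of 5 Cyp2d windows, against 13.569% of all windows. The windows of Cyp2c65 and Cyp2c66 were 77.9% identical, and those of Cyp2c40, Cyp2c67, Cyp2c68 and Cyp2c69 were 54.9 to 91.1% identical to each other. AGGTCA, the half-site of many nuclear receptors, was in 13 of 39 Cyp2 windows and in 16.249% of all, GCGTG, the core of the dioxin response element, in 6 of 39 and 32.581%, and TTTATTG, a caudal-type site, in Cyp2c55 alone and 4.508%. These are matches of letters, and no binding was measured.

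The comparison of each day asks which Cyp2 genes differed with E171 at that time. At 7 days 17 Cyp2 genes rose and 0 fell, against 6.67% of all genes that rose and 5.75% that fell. With a fit on the arrays of that day alone, or with array weights, 1 of the Cyp2 genes was called. The 17 were 8 of 13 Cyp2c genes, 7 of 10 Cyp2d genes and Cyp2j6 and Cyp2j13, with medians on the log2 scale of 3.0 over the Cyp2c genes and 2.61 over the Cyp2d genes. At 14 days 6 rose (3.32% of all genes) and 0 fell (3.08% of all), and these lay outside the Cyp2d subfamily. At 2 days Cyp2w1 rose (1.55% of all genes) and 0 fell (0.177% of all), and at 21 days 0 were called (0.980% of all rose and 1.65% fell).

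In order of the days, the 41 log2 fold changes had medians of -0.08, 0.94, 0.13 and 0.12, beside 0.05, -0.02, 0.02 and 0.04 over all genes. At 7 days 34 of the 41 were higher with E171, at 14 days 23, at 21 days 27 and at 2 days 17. None of the Cyp2 genes had a limma adjusted p under 0.05 on any day, and the smallest was 0.199, at 7 days. Of all 19796 genes 0% passed that threshold on any of the 4 days. At an unadjusted p under 0.05 there were 1, 17, 6 and 0 Cyp2 genes at 2, 7, 14 and 21 days. Of all 19796 genes 545, 3303, 1602 and 1178 had such a p on these days.

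**Figure D2:**
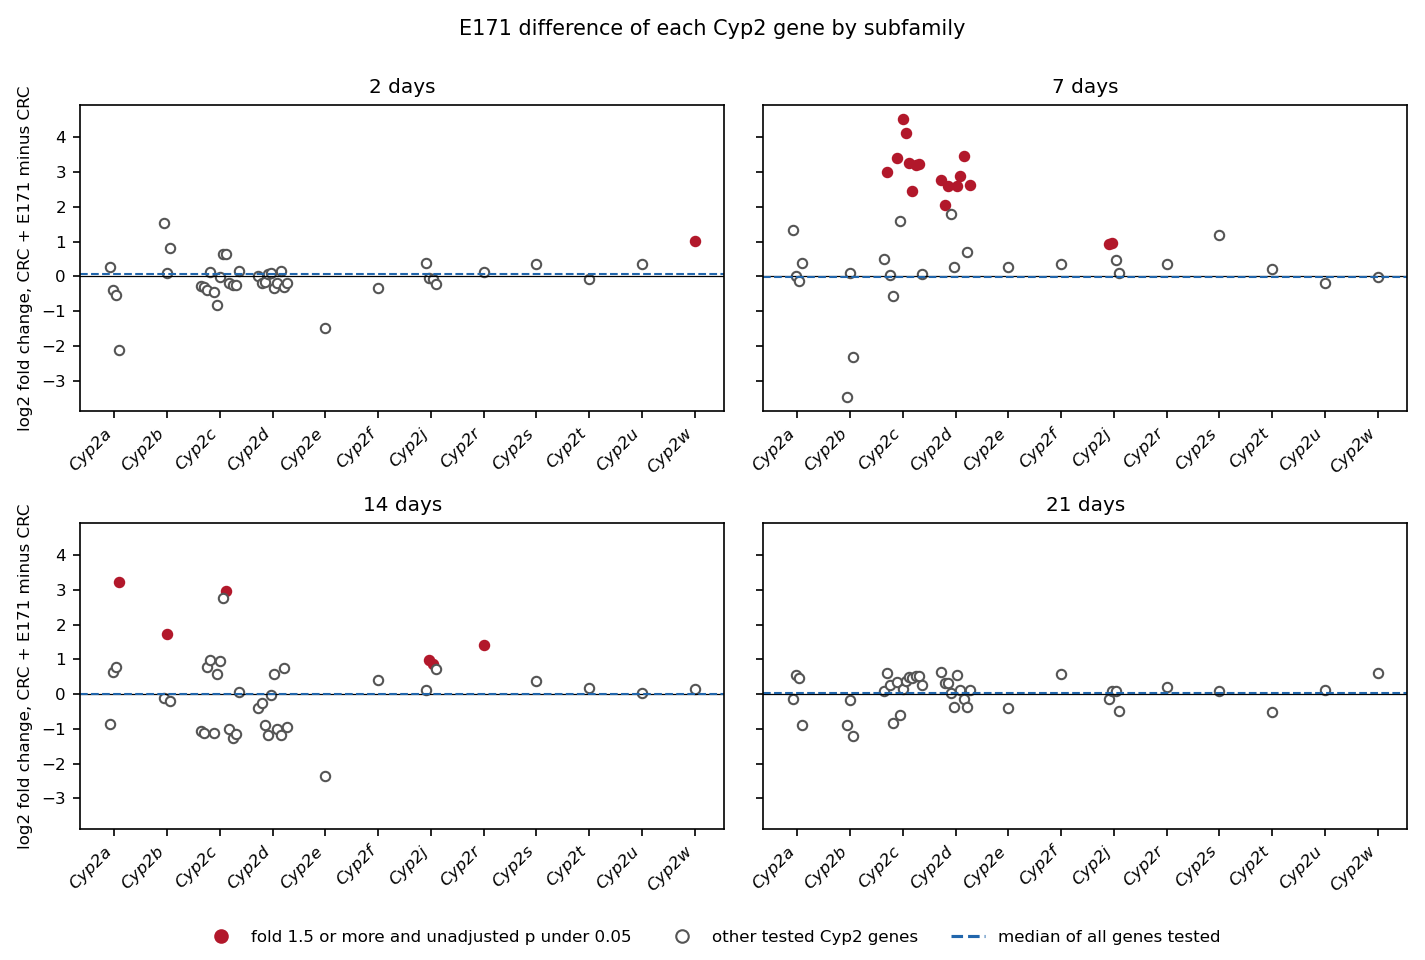
Log2 fold change (CRC + E171 over CRC, 4 arrays against 4, and 4 against 3 at 21 days) of each of the 41 Cyp2 genes by subfamily, 1 panel per day. Filled points passed the fold change of 1.5 and the unadjusted p of 0.05, and the dashed line is the median over all genes. The Cyp2c and Cyp2d points stand highest at 7 days.

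Cyp2c55, a P450 of the mouse colon that hydroxylates arachidonic acid, had the largest fold change at 7 days. Its level in CRC was -5.22 and -4.59 in the males and 3.21 and 2.51 in the females, and with E171 it was 2.86 and 2.28 in the males and 2.45 and 6.41 in the females. The CRC males were far below every other array of that day, the CRC females lay within the range of the E171 arrays, and E171 female 2 was highest. The fold change was 23.0 (log2 4.52, SE 1.72, 95% interval 0.98 to 8.06, limma adjusted p = 0.221, exact permutation p = 0.257), and its 2 probes gave log2 values of 4.61 and 4.43.

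Cyp2c65 and Cyp2c66 are neighbours of Cyp2c55 and are known from the gastrointestinal epithelium. Cyp2c65 lay at -7.60, -5.25, -1.44 and -1.04 in CRC (males 1 and 2, then females 1 and 2, here and below) and at -1.29, -0.69, -1.77 and 4.95 with E171. Cyp2c66 lay at -4.12, -5.80, -1.45 and -0.82 in CRC and at -1.29, -0.58, -1.78 and 4.49 with E171. In both genes the CRC males were lowest, E171 female 2 was highest and the groups overlapped. In 1 CRC male Cyp2c65 was not well above background, so its fold rests in part on a dim signal. Cyp2c65 rose 17.5-fold (log2 4.13, SE 1.62, limma adjusted p = 0.226, exact permutation p = 0.143) and Cyp2c66 9.58-fold (log2 3.26, SE 1.41, limma adjusted p = 0.256, exact permutation p = 0.171).

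Cyp2c40, an intestinal arachidonic acid hydroxylase, and Cyp2d37-ps, listed as a pseudogene, were called as well. Cyp2c40 lay at -7.57, -6.25, 1.46 and 1.02 in CRC and at 1.54, -0.46, 1.22 and -0.06 with E171. Cyp2d37-ps lay at -6.51, -4.88, 1.26 and 1.06 in CRC and at 1.54, 1.30, 1.41 and 0.57 with E171. In both genes the CRC females were as high as E171 arrays, while Cyp2c40 was not well above background in either CRC male nor Cyp2d37-ps in 1 of them. The fitted log2 fold change, which rests in part on these dim signals, was 3.39 (SE 1.39, limma adjusted p = 0.235, exact permutation p = 0.314) for Cyp2c40 and 3.47 (SE 1.13, limma adjusted p = 0.199, exact permutation p = 0.171) for Cyp2d37-ps.

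The other 10 Cyp2c and Cyp2d genes that rose at 7 days, the Cyp2c genes Cyp2c29, Cyp2c67, Cyp2c68 and Cyp2c69 and the Cyp2d genes Cyp2d9, Cyp2d10, Cyp2d11, Cyp2d12, Cyp2d26 and Cyp2d34, had log2 fold changes between 2.05 (Cyp2d11) and 3.22 (Cyp2c69). Cyp2c29, Cyp2c68, Cyp2c69 and Cyp2d34 were not well above background in 1 CRC male, so their values rest in part on a dim signal. As an example, Cyp2d10 lay at -2.09, -2.73, 3.42 and 3.44 in CRC and at 3.31, 3.19, 3.45 and 3.17 with E171. Its E171 arrays lay close together and next to the CRC females. Cyp2d22, proposed as the mouse counterpart of the human CYP2D enzyme, did not follow its subfamily: it ranged from -3.28 to -1.17 over the 31 arrays and its log2 fold change at 7 days was 0.27 (SE 0.39, limma adjusted p = 0.772).

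The Cyp2j genes, which encode epoxygenases of arachidonic acid, were the only other subfamily with calls at 7 days. Cyp2j13 lay at -3.80, -4.58, -4.19 and -3.88 in CRC and at -2.84, -3.28, -3.50 and -3.07 with E171. Its groups did not overlap, the only such Cyp2 gene at 7 days (2.72% of all genes were higher and 2.09% lower without overlap), and it rose 1.92-fold (log2 0.94, SE 0.29, limma adjusted p = 0.199, exact permutation p = 0.0286). Its 2 probes gave log2 values of 1.44 and 0.45, and the first was above background on 18 arrays. Cyp2j6, the epoxygenase of the intestine, lay at -2.91, -2.20, -1.21 and -1.28 in CRC and at -1.06, -1.01, -1.53 and -0.22 with E171, with the CRC males lowest (log2 0.94, SE 0.41, limma adjusted p = 0.254, exact permutation p = 0.143).

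Members that did not pass at 7 days included Cyp2s1, an extrahepatic P450 of epithelia, at 1.18 on the log2 scale (SE 0.65, limma adjusted p = 0.356), Cyp2e1 at 0.28, Cyp2f2 at 0.35 and Cyp2a5 at 0.40. For Cyp2s1 this rested on CRC male 2: without that array the value was 0.13, while it was called, at 1.49 to 1.64, without CRC female 1 or 2 or CRC + E171 male 2. The vitamin D hydroxylase Cyp2r1 was at 0.35, and the fatty acid hydroxylase Cyp2u1 at -0.20. Cyp2b10, the classic target gene of CAR, was at -3.48 (SE 1.78, limma adjusted p = 0.323). Leaving out single arrays gave -4.80 to -1.87, with -1.87 without CRC male 1 and calls without CRC female 1 (-4.05), CRC male 2 (-4.80) or CRC + E171 female 1 (-4.22). Its level was 3.03 in CRC male 1 and -5.76, -3.51 and -0.87 in the other CRC mice, against -6.40, -7.79, -3.03 and -3.79 with E171, so CRC male 1 stood above all.

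**Figure D3:**
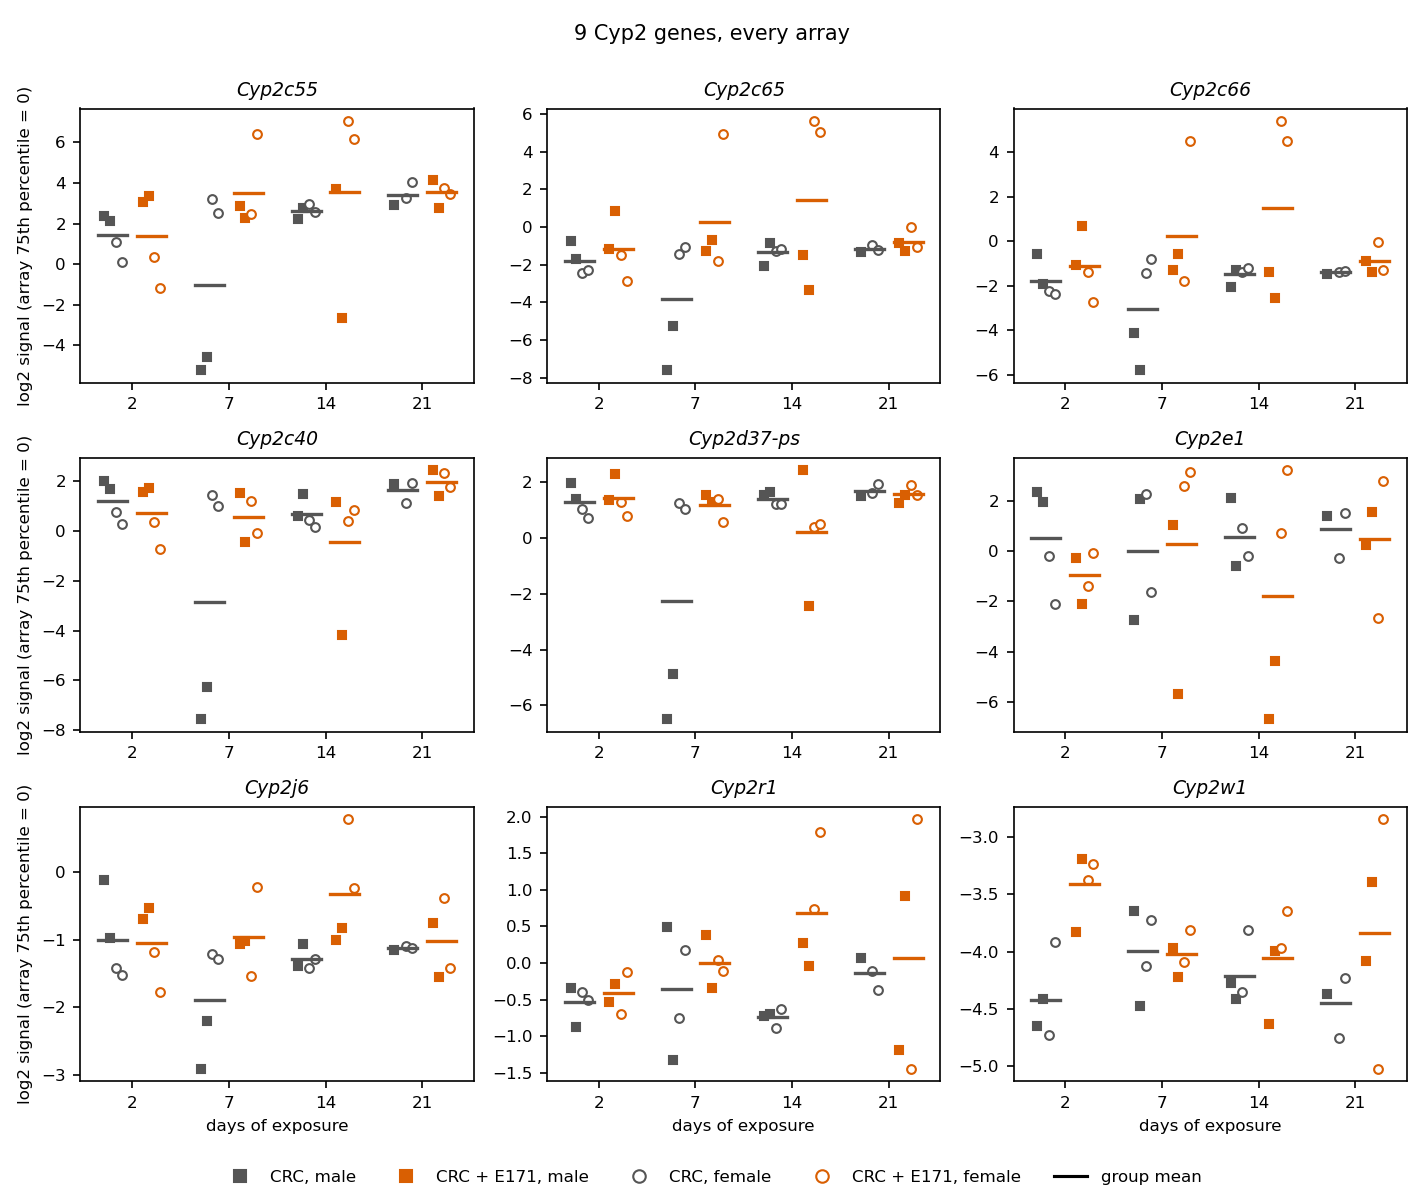
Log2 signal (75th percentile = 0) of 9 named Cyp2 genes on every array, by group and day. Squares are males, open circles are females and bars are group means. In the Cyp2c and Cyp2d panels the 2 CRC males of 7 days lie below the others, while Cyp2r1 at 14 days and Cyp2w1 at 2 days separate the groups.

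Most of the 7-day increases rested on the CRC males. Without CRC male 1, 2 Cyp2 genes were called, and without CRC male 2, 6 were called. Without both, an alternative added after the data had been seen, 1 was called, Cyp2j13 (0.86), and the median log2 fold change was -0.091. Of all 19796 genes 209 rose and 252 fell in that fit. Without both males the log2 fold change was 0.64 for Cyp2c55, 1.54 for Cyp2c65, 1.35 for Cyp2c66, 0.046 for Cyp2d37-ps, 0.29 for Cyp2j6 and -0.68 for Cyp2c40. Without CRC + E171 female 2, 16 were called, but Cyp2c55 (3.55), Cyp2c65 (2.58), Cyp2c66 (1.83) and Cyp2j6 (0.70) no longer were. Cyp2c40 was not called without CRC male 1 (1.82), CRC male 2 (2.25) or CRC + E171 male 1 (3.07), nor were Cyp2c55, Cyp2c65, Cyp2c66 and Cyp2j6 without CRC male 1 (3.12, 2.88, 2.90 and 0.61) and Cyp2c55, Cyp2c66 and Cyp2j6 without CRC male 2 (3.33, 2.34 and 0.84).

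Marker lists of epithelial cells moved with these genes. At 7 days 10 of 12 colonocyte genes, 7 of 8 goblet cell genes and 9 of 10 pan-epithelial genes rose (6.67% of all genes), with median log2 fold changes of 2.63, 2.89 and 1.32, and 3 of 9 neutrophil genes fell (5.75% of all), with a median of -2.41. Without both CRC males 0 genes of these 4 lists were called. The colonocyte list ranged from -5.56 to 0.55 in CRC and from 0.15 to 0.73 with E171. The median over the 13 Cyp2c genes on the same scale was -5.74, -4.80, 0.02 and 0.41 in CRC, and that over the 10 Cyp2d genes was -4.89, -4.49, 0.68 and 0.44. Slc26a3, a chloride exchanger of colonocytes, lay at -7.09 and -4.01 in the CRC males and at 2.22 and 2.26 in the CRC females, and S100a8, which encodes a neutrophil protein, at 7.34 and 6.0 against -4.73 and -3.02. The part of these lists in the Cyp2 differences was not tested.

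**Figure D4:**
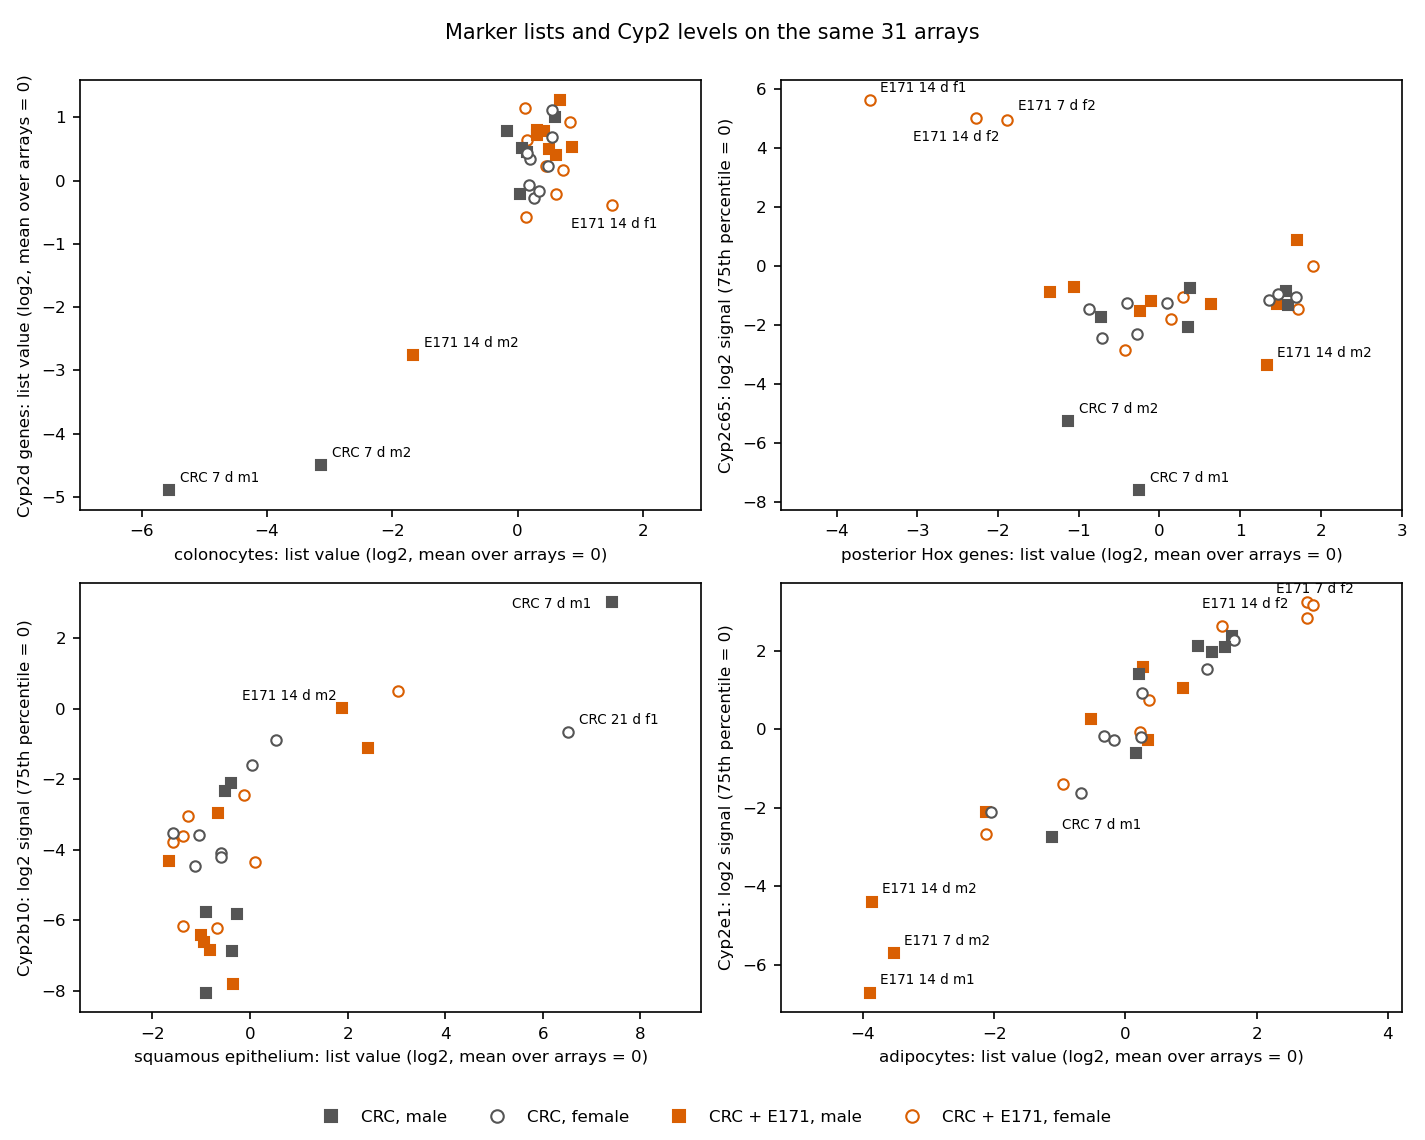
Marker lists (x axis, log2 list value with a mean of 0 over arrays) and Cyp2 levels (y axis, log2) on the same 31 arrays: colonocytes with the Cyp2d genes, posterior Hox genes with Cyp2c65, squamous epithelium with Cyp2b10 and adipocytes with Cyp2e1. Squares are males, open circles are females, grey is CRC and orange CRC + E171. The 2 CRC males of 7 days and CRC + E171 male 2 of 14 days lie at the low end of the first panel, and 3 CRC + E171 females lie at the upper left of the second.

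Since males and females of 7 days lay apart, the effect of E171 was also compared between them, in a limma model over 16 groups of sex, arm and day with 2 arrays a group. For 13 of the 41 Cyp2 genes the effect differed between males and females with an adjusted p under 0.05, all with the greater value in males, against 3.47% of all genes in either direction. In males 18 Cyp2 genes rose with an adjusted p under 0.05 (15.2% of all genes changed) and in females 0 did (0% of all), with 0 Cyp2 genes at an unadjusted p under 0.05 in females (2.48% of all) and a median log2 fold change of -0.05.

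The largest fitted differences were in Cyp2c40, Cyp2c69, Cyp2c68, Cyp2c29 and Cyp2d37-ps. As both CRC males were not well above background for Cyp2c40, its increase in males is given as at least 80.3-fold, from the mean of the E171 males over the lowest signals well above background, and its effect in females was -0.66 on the log2 scale. The fitted difference of 8.11 (SE 1.55, limma adjusted p = 0.00957) takes these dim signals as measured and is no exact size. Cyp2d37-ps had 7.11 in males and -0.17 in females, a difference of 7.28 (SE 1.32, limma adjusted p = 0.00743). The differences of Cyp2c69, Cyp2c68 and Cyp2c29 were 7.78, 7.76 and 7.68, with limma adjusted p-values of 0.0179, 0.0199 and 0.0241, and in each of Cyp2c29, Cyp2c68, Cyp2c69 and Cyp2d37-ps 1 of the 2 CRC males was above background.

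Cyp2c55 (5.91, limma adjusted p = 0.103) and Cyp2d26 (4.07, adjusted p = 0.0943) did not pass. Cyp2c65 and Cyp2c66 had differences of 2.60 and 1.53, with increases in females of 2.83 and 2.49 that rested on the same female 2. The CRC males of this comparison are the arrays with the low colonocyte list, so sex and the makeup of these 2 tissue pieces cannot be told apart. The count of 13 was 3 without CRC female 1, 3 without CRC + E171 male 1, 4 without CRC + E171 female 2 and 5 without CRC female 2. Cyp2c40 did not pass without CRC female 1 (7.89), CRC + E171 male 1 (7.11) or CRC + E171 female 2 (7.47). Cyp2c29, Cyp2c68 and Cyp2c69 each lost the call when 1 of several single arrays was left out, with values of 6.86 to 8.04, and Cyp2d37-ps passed without each.

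**Figure D5:**
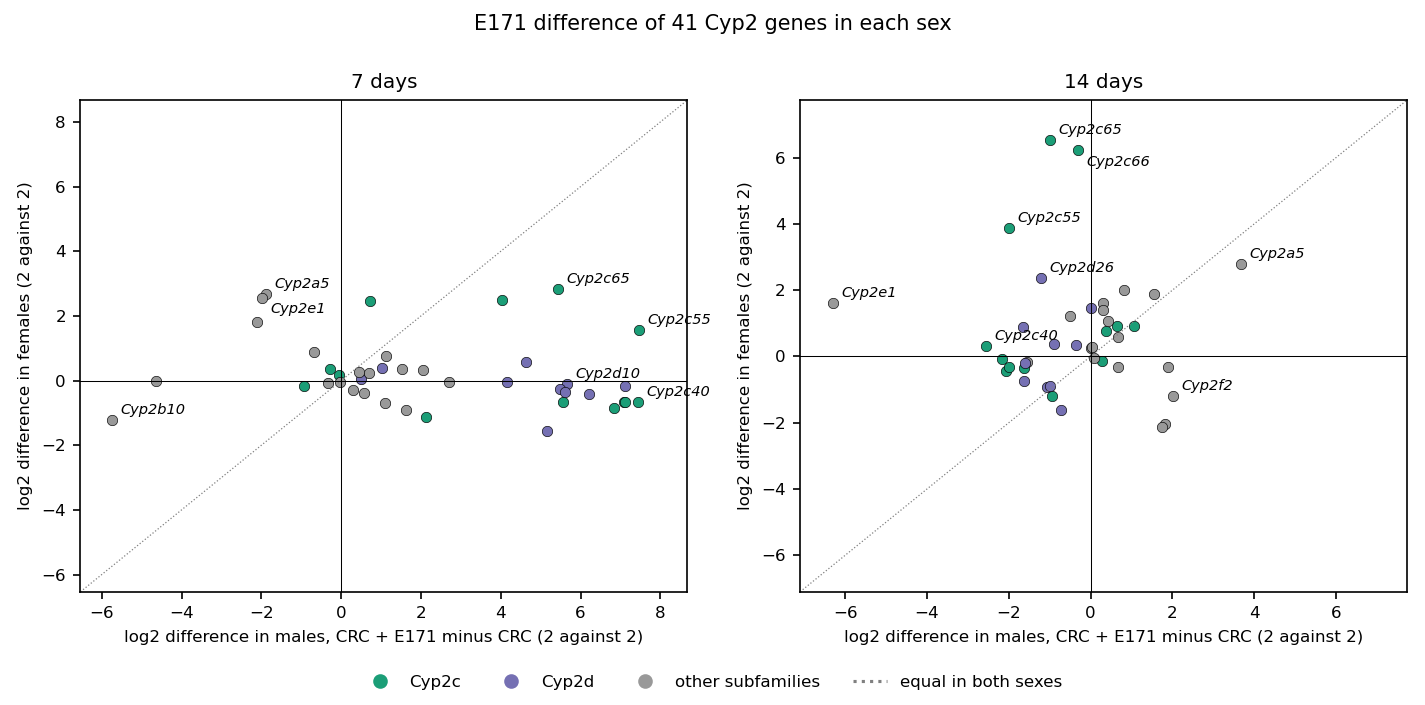
Effect of E171 (log2 difference, CRC + E171 minus CRC) in females and in males for the 41 Cyp2 genes at 7 and 14 days, 2 arrays against 2. At 7 days most Cyp2c and Cyp2d genes are high in males and near 0 in females, and at 14 days Cyp2c55, Cyp2c65 and Cyp2c66 are high in females.

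At 14 days the 6 genes that rose were Cyp2a5, Cyp2c66, Cyp2b13, Cyp2r1, Cyp2j6 and Cyp2j8. Cyp2r1, which carries out the first hydroxylation in the activation of vitamin D, lay between -0.89 and -0.63 in the 4 CRC mice (-0.73, -0.70, -0.89 and -0.63) and at 0.28, -0.04, 0.73 and 1.79 with E171. All E171 arrays were above all CRC arrays, and the fold change was 2.68 (log2 1.42, SE 0.51, 95% interval 0.37 to 2.48, limma adjusted p = 0.516, exact permutation p = 0.0286). Without CRC + E171 female 2 it was 1.06 on the log2 scale and no longer called. At 21 days the E171 arrays were spread from -1.44 to 1.96 around CRC levels of -0.37 to 0.07.

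Cyp2j6 lay at -1.39, -1.06, -1.41 and -1.28 in CRC and at -1.0, -0.82, 0.79 and -0.23 with E171, again without overlap (1.96-fold, log2 0.97, SE 0.41, limma adjusted p = 0.569, exact permutation p = 0.0286). Without CRC + E171 female 1 the log2 fold change was 0.60 and not called. Cyp2j8 lay at 0.15, 0.35, 0.25 and 0.48 in CRC and at 0.14, 0.99, 2.22 and 1.33 with E171, with E171 male 1 at the CRC level (log2 0.86, SE 0.35, limma adjusted p = 0.560, exact permutation p = 0.143). The 4 tested Cyp2j genes had a median log2 fold change of 0.80, with Cyp2j9 at 0.74 and Cyp2j13 at 0.13, the mean of a probe at 1.0 and a probe at -0.74.

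Cyp2a5 encodes the coumarin hydroxylase of the mouse. It lay at -6.33, -5.35, -7.50 and -7.98 in CRC, above background on 1 of these arrays, and at -4.80, 0.48, -4.21 and -5.69 with E171. E171 male 2 stood above the rest and the groups overlapped at the lower E171 values (9.42-fold, log2 3.24, SE 1.38, limma adjusted p = 0.579, exact permutation p = 0.0571). This fold sets E171 signals against CRC signals that were mostly not well above background, so its size is uncertain. Without that array the log2 fold change was 1.89, and without CRC female 1 or female 2 it was 3.0 or 2.84, none of them called.

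Cyp2b13 was below background on all 4 CRC arrays (-6.31, -7.38, -6.94 and -7.62) and above it on 3 of 4 E171 arrays (-5.73, -4.84, -5.89 and -4.86), so it was at least 1.33-fold higher with E171 (limma adjusted p = 0.546, exact permutation p = 0.0286). Cyp2c38, which was not called, lay at -2.94, -3.84, -2.98 and -3.17 in CRC and at -2.72, -1.92, -2.37 and -1.94 with E171. These were with Cyp2r1 and Cyp2j6 the 4 Cyp2 genes with no overlap and higher values with E171 at 14 days, and 0 had lower values, beside 3.42% and 2.72% of all genes.

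Cyp2c66 and Cyp2c65 turned on the 2 E171 females. At 14 days Cyp2c66 lay at -2.06, -1.31, -1.38 and -1.20 in CRC and at -1.41, -2.58, 5.39 and 4.51 with E171, and Cyp2c65 lay at -2.06, -0.83, -1.25 and -1.15 in CRC and at -1.50, -3.36, 5.64 and 5.04 with E171. The E171 females were far above all other arrays and the E171 males were at or below the CRC level. Over all arrays the log2 fold change was 2.97 for Cyp2c66 (SE 1.41, limma adjusted p = 0.607, exact permutation p = 0.400) and 2.78 for Cyp2c65, which was not called (SE 1.62, limma adjusted p = 0.682). Cyp2c66 was not called without E171 female 1 (1.66) or female 2 (1.96), nor without any 1 of the CRC arrays (2.78 to 3.06), and Cyp2c65 was called without E171 male 1 (3.76) or male 2 (4.38). In females alone the log2 fold changes were 6.25 and 6.54, and these were the 2 Cyp2 genes with a limma adjusted p under 0.05 (0.0370 and 0.0451) among 97 genes (0.490%). In males 0 Cyp2 genes passed (0.00505% of all genes), with 3 at an unadjusted p under 0.05 (2.74% of all). The males include the CRC array with Xist at the female level, and without it 0 passed and 1 had an unadjusted p under 0.05.

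The test of the difference itself between males and females at 14 days gave 0 Cyp2 genes with an adjusted p under 0.05 (0.00505% of all genes) and 5 at an unadjusted p under 0.05 (8.16% of all), namely Cyp2c55 (-5.85), Cyp2c65 (-7.52), Cyp2c66 (-6.56), Cyp2d26 (-3.57) and Cyp2e1 (-7.92), with a smallest adjusted p of 0.323. The number of Cyp2 genes that passed did not change without the array labelled male 2 of CRC, and rose without CRC + E171 male 1. Each of these fits leaves a single male in an arm. How many of all genes passed without CRC + E171 male 1 was not counted. Cyp2c55 lay at 2.23, 2.78, 2.96 and 2.55 in CRC and at 3.69, -2.65, 7.05 and 6.18 with E171, so male 2 was lowest and the females highest, and the log2 fold change was 0.94 (SE 1.72, limma adjusted p = 0.936). It was -0.22 without E171 female 1, 0.070 without E171 female 2 and 3.01 without E171 male 2.

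The 3 arrays with high Cyp2c65 and Cyp2c66, CRC + E171 female 2 of 7 days and females 1 and 2 of 14 days, are those with low Hoxb13 and Hoxd13. The list of 8 posterior Hox genes, which was chosen after the data had been seen, was at -1.88, -3.58 and -2.28 on them and between -1.35 and 1.90 on the other 28 arrays. Hoxb13 and Hoxd13 were above background on 29 of the 31 arrays each, and Hoxc10, also of this list, on 5. At 14 days 4 of the 8 Hox genes fell and 1 rose (3.08% and 3.32% of all genes). The list of 8 small intestinal enterocyte genes was at 0.91, 5.11 and 1.01 on these 3 arrays, and at 14 days 5 of its genes rose (3.32% of all genes), with a median log2 fold change of 1.88. Without both E171 females of 14 days, an alternative added after the data had been seen, 4 Cyp2 genes were called, namely Cyp2a5, Cyp2b13, Cyp2e1 and Cyp2f2. Of all 19796 genes 292 rose and 324 fell in that fit. Cyp2c66 was then at -0.51, Cyp2c65 at -1.11, Cyp2c55 at -2.11, Cyp2j6 at 0.38, Cyp2j8 at 0.26 and Cyp2r1 at 0.85, and none of these was called. The list of enterocyte genes then had 0 called. The effect in females and in males was 2.02 and 0.83 for Cyp2r1, 1.63 and 0.31 for Cyp2j6 and 1.41 and 0.31 for Cyp2j8, and the test of the difference passed an unadjusted p of 0.05 for none of them. The part of the Hox and enterocyte lists in the Cyp2 differences was not tested.

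Cyp2d genes were not called at 14 days, and 8 of 10 lay below CRC, and the median on the log2 scale was -0.64. The median over the 10 genes on each array was -0.22, 0.78, -0.27 and -0.07 in CRC and 1.27, -2.76, -0.39 and -0.21 with E171. E171 male 2 was lowest and male 1 highest of the 8 arrays. Cyp2d26 gave log2 fold changes of 1.58 and -0.43 from its 2 probes, so its mean of 0.57 hides probes of opposite sign. Without the array labelled male 2 of CRC, whose Xist was at the female level, 6 Cyp2 genes were called at 14 days, 5 of them as with it. Cyp2c66 was lost and Cyp2j9 (0.95) gained.

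Cyp2w1, a P450 of the fetal gut that reappears in tumours of the colon, was the 1 Cyp2 gene called at 2 days. It lay at -4.65, -4.41, -4.73 and -3.92 in CRC and at -3.83, -3.19, -3.38 and -3.24 with E171. Each E171 array was above each CRC array, which held for no other Cyp2 gene at 2 days (2.76% of all genes higher and 0.991% lower without overlap). The fold change was 2.03 (log2 1.02, SE 0.32, 95% interval 0.37 to 1.67, limma adjusted p = 1.0, exact permutation p = 0.0286), and it was 0.78 to 1.19 on the log2 scale and called, at the linear threshold, in all 21 alternatives that could be computed for it.

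Cyp2w1 was not called later, with log2 values of -0.03 at 7, 0.15 at 14 and 0.62 at 21 days (SE 0.34, limma adjusted p = 0.860). Its 2 probes gave 1.14 and 0.90 at 2 days but -0.64 and 0.95 at 14 days. At 21 days it lay at -4.38, -4.75 and -4.23 in CRC and at -4.08, -3.39, -5.02 and -2.85 with E171, and it was called without E171 female 1 (1.01) but was at 0.29 without E171 female 2.

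At 2 days Cyp2a5 was lower with E171 without being called, at -4.88, -5.09, -3.43 and -2.97 in CRC and -6.62, -4.07, -6.31 and -7.88 with E171 (log2 -2.13, SE 1.38, exact permutation p = 0.0857), and only 1 of the E171 arrays was above background. Cyp2e1, which metabolises ethanol and small solvents, was at -1.48 (SE 1.84) and Cyp2b10 at 1.52 (SE 1.78). At 21 days the log2 fold changes of the 41 genes ran from -1.19 to 0.64 and 11 of 13 Cyp2c genes lay above CRC, and their median was 0.35. Among the named members at 21 days Cyp2a5 was at -0.90, Cyp2b10 at -0.88, Cyp2e1 at -0.39, Cyp2d22 at -0.36, Cyp2f2 at 0.58, Cyp2c66 at 0.49, Cyp2c65 at 0.37 and Cyp2c55 at 0.14. No Cyp2 gene was without overlap at 21 days, against 5.12% of all genes higher and 3.06% lower.

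Cyp2e1 varied from array to array more than with the arm. At 14 days it lay at 2.11, -0.60, 0.91 and -0.18 in CRC and at -6.70, -4.39, 0.74 and 3.23 with E171, with both E171 males lowest and E171 female 2 highest (log2 -2.34, SE 1.84, limma adjusted p = 0.790). At 7 days it lay at -2.75, 2.08, 2.27 and -1.61 in CRC and at 1.04, -5.69, 2.62 and 3.15 with E171. The list of 7 adipocyte genes was at -3.89, -3.86, 0.35 and 2.76 on the E171 arrays of 14 days and at -3.53 in E171 male 2 of 7 days. Adipocytes express Cyp2e1, and the part of fat in these samples was not tested. With all arrays the list had 0 called genes on any day. Its defining genes Adipoq and Plin1 were above background on 30 and 28 arrays. Without both E171 females of 14 days 5 of its 7 genes fell, with a median log2 fold change of -3.87, and Cyp2e1 was called at -6.11. In that fit 324 of all 19796 genes fell. Leaving out single arrays moved the 14-day value of Cyp2e1 between -4.01, where Cyp2e1 was called, without E171 female 2, and -0.70 without E171 male 1 (-1.47 without E171 male 2).

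Cyp2b10 and its neighbour Cyp2b9 were highest on an array with high squamous epithelium genes. Cyp2b10 was at 3.03 and Cyp2b9 at 1.27 in CRC male 1 of 7 days, where the squamous list of 8 tested genes was at 7.42. The list was at 6.53 in CRC female 1 of 21 days, with Cyp2b10 at -0.65 and Cyp2b9 at -1.97, and at 3.03 in CRC + E171 female 1 of 21 days, with Cyp2b10 at 0.51 and Cyp2b9 at -1.16. In CRC + E171 male 2 of 2 days and of 14 days the list was at 2.43 and 1.89, with Cyp2b10 at -1.11 and 0.03 and Cyp2b9 at -2.47 and -1.39. Cyp2b10 reached -0.87 in CRC female 2 of 7 days with the list at 0.54. Krt5, a keratin of squamous epithelium, was above background on 31 arrays, and 0 genes of the list were called on any day. Cyp2b9 passed the filter in CRC groups alone. The part of this tissue was not tested.

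Cyp2f2, known from the club cells of the lung where it activates naphthalene, was at 0.95 to 6.06 on all but 2 arrays, CRC male 2 of 7 days (-3.04) and CRC + E171 female 1 of 14 days (-0.27). Of the 6 club and alveolar lung genes 3 were tested: Scgb1a1 and Scgb3a2, which mark club cells, were above background on 30 and 31 arrays and Sftpb on 7. Of the others, Sftpa1 was above background on 0 arrays, Sftpd on 1 and Sftpc on 2. Cyp2s1 lay between 2.96 and 5.36 on all arrays but CRC male 2 of 7 days, at -0.23. Cyp2u1 stayed between -1.63 and 0.03 on the 31 arrays, with log2 fold changes of 0.35, -0.20, 0.02 and 0.13 at 2, 7, 14 and 21 days. The list of 12 hepatocyte genes was highest in CRC + E171 female 1 of 7 days, at 2.95, where Cyp2a5 was at -1.25 and Cyp2c50 at -2.0, and Alb was at 2.57.

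Averaged over the 4 days, 35 of 41 Cyp2 genes lay above CRC and 6 below, and the median on the log2 scale was 0.34 against 0.03 over all genes. Cyp2c66 (1.84, SE 0.72) and Cyp2c65 (1.98, SE 0.83) rose by the fold change and unadjusted p (0.606% of all genes rose) and 0 Cyp2 genes had an adjusted p under 0.05 (0.00505% of all), with 5 at an unadjusted p under 0.05 (10.1% of all). Leaving out CRC + E171 male 2 of 14 days gave 5 genes called, and CRC female 1 of 7 days 4.

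Between the days of the CRC arm alone 0 Cyp2 genes differed by limma's F test with an adjusted p under 0.05 (0% of all genes), with 11 at an unadjusted p under 0.05 (9.85% of all), and between the days of the CRC + E171 arm 0 did (0% of all), with 0 at an unadjusted p under 0.05 (14.7% of all). Between males and females over all 31 arrays 0 Cyp2 genes had an adjusted p under 0.05 (0.0505% of all genes), with 4 at an unadjusted p under 0.05 (8.89% of all). Of the 41 genes 32 were lower in males, with Cyp2c65 at -1.92 in males and -0.21 in females and Cyp2c66 at -1.72 and -0.32. At 2 days and at 21 days the E171 effect differed between males and females for 0 Cyp2 genes (0% and 0.00505% of all genes), with 0 at an unadjusted p under 0.05. At 21 days this rests on 1 CRC male.

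Genes around the P450 enzymes were taken from lists of the pathway. The shares over all genes given with the daily counts (6.67% rose and 5.75% fell at 7 days, 3.32% and 3.08% at 14 days) apply to these counts too. Of 8 genes for redox partners and haem, among them Por, 1 fell at 7 days, the haem oxygenase gene Hmox1 (log2 -1.64, SE 0.56), and 1 rose at 14 days, the haem-binding Pgrmc1 (0.61, SE 0.27). Of 13 regulators 4 rose at 7 days, with Nr1i2, which encodes PXR, at 2.58 (SE 0.84), Hnf4a at 2.42, the bile acid receptor gene Nr1h4 at 1.4 and Hnf4g at 1.31, all with limma adjusted p-values of 0.199 to 0.224. At 14 days 3 rose, Ppara (1.68), Nr1h4 (1.21) and Rxra (0.79). The medians of the regulators were 0.81 at 7 days and 0.22 at 14 days. Their list was at -1.37 and -1.11 in the CRC males of 7 days, whose colonocyte list was low, and at 0.17 and 0.06 in the CRC females, and without both males 0 rose and 1 fell. Without both CRC + E171 females of 14 days 0 were called, and the part of these arrays was not tested.

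Of 9 tested CAR and PXR target genes outside Cyp2, 5 rose at 7 days, with the carboxylesterase gene Ces2a at 2.81, Cyp3a13 at 2.21, Cyp3a11 at 2.12 and the transporter genes Abcb1a at 1.36 and Abcc3 at 1.19. At 14 days 4 rose, Aldh1a1 (1.97), Cyp3a11 (1.48), Aldh1a7 (0.96) and Abcc3 (0.84). This list was at -1.39 and -1.73 in the CRC males of 7 days against 0.41 and 0.15 in the CRC females, and at 1.85 and 1.27 in the E171 females of 14 days with low Hoxb13 against 0.36 and -1.14 in the E171 males. Without both CRC males of 7 days, and without both E171 females of 14 days, 0 of its genes were called. Of 12 eicosanoid enzymes 3 fell at 7 days, Ptgs2 (-1.59), the epoxide hydrolase gene Ephx3 (-1.57) and the lipoxygenase gene Alox5 (-1.0). Without both CRC males of 7 days, which had the highest neutrophil lists (4.27 and 5.38) and, in male 1, the highest squamous list (7.42), 0 of these genes and 0 of the redox and haem genes were called, and the part of those cells was not tested. None of these lists had a call at 2 or 21 days, and on no day did any of their genes have a limma adjusted p under 0.05. The 33 tested P450 genes outside Cyp2 include Cyp3a11 and Cyp3a13, counted above. Of these 33, 2 rose at 2 days (1.55% of all genes), and 6 rose (6.67%) and 2 fell (5.75%) at 7 days. At 14 days 4 rose (3.32%) and 2 fell (3.08%), and at 21 days 0 were called.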

How the data were processed

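RNA of 31 distal colon samples was measured on Agilent SurePrint G3 mouse arrays. The authors scanned them and extracted the spots with Agilent Feature Extraction 10.7.3.1, and the deposited intensity of a spot is background-subtracted and not normalized between arrays. The authors also deposited a matrix on the log2 scale, for which they dropped spots by missing values and low mean expression and filled gaps with a nearest-neighbour method (its normalization is not given in the sources used here). It held 39 of the 49 Cyp2 genes and served as an alternative. Groups came from the sample titles.

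Outlier spots were left out, and the log2 intensity minus the array's 75th percentile was used. Probes stayed in when, in 1 or more groups, at least 60% of arrays were well above background and log2 signals averaged 4 or more. Of the probes 43736 were matched to RefSeq genes (GRCm38.p6), by accession (32989), symbol (10228) or synonym (519), and 12869 were not. Probes of a gene were averaged. R 4.3.3 and limma 3.58.1 were used, with 1 model over 8 groups, 1 over 16 groups of sex, arm and day, and Benjamini-Hochberg adjustment. The fits were tested on simulated data. The study's methods write the fold change threshold of 1.5 on the log2 scale. A linear 1.5 was used here, which is more lenient, and the log2 scale was an alternative added after the data had been seen.

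Members, gene lists and tests were chosen with earlier results of these data known. Named with values are, per day, up to 5 called genes with the largest change each way, up to 5 with the largest difference between sexes, and Cyp2e1, Cyp2a5, Cyp2c55, Cyp2c65, Cyp2c66, Cyp2s1, Cyp2j6, Cyp2r1, Cyp2u1, Cyp2w1, Cyp2b10, Cyp2f2 and Cyp2d22. Other members named, such as Cyp2j13, Cyp2j8, Cyp2c38, Cyp2d10, Cyp2d26 and Cyp2b9, were chosen after their values were seen. A member of the list of regulators is not reported here and was left out of its counts. P-values measure the spread between the mice of a group. Within a day no slide held both arms, so slide and arm cannot be told apart there. Alternatives were quantile and normexp (offset 50) normalization, the deposited log2 matrix, no or a stricter filter, the brightest probe, a fit on the compared arrays alone, sex as a term, a replicate block, slide or scan day as a block, array weights, an intensity trend, no fold change threshold and leaving out each array.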

Additional observations from a re-analysis of the deposited data

Results flagged for a closer look

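Among 112 groups of 4 arrays over 16 named genes, 6 held a value that stood apart by Dixon's criterion, and chance gives about 1 in 20 groups. In CRC + E171 at 7 days Cyp2c55 was at 6.41 in female 2 against 2.28 to 2.86 in the others, Cyp2c65 was at 4.95 in female 2 against -1.77 to -0.69, and Cyp2a5 was at -1.25 in female 1 against -6.69 to -6.03. In CRC + E171 at 14 days Cyp2c40 was at -4.18 in male 2 against 0.41 to 1.17. Cyp2s1 was at -0.23 in CRC male 2 of 7 days against 3.69 to 4.31, and at 5.36 in CRC + E171 female 1 of 21 days against 4.26 to 4.38.

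At 7 days the log2 effect of E171 was greater in males than in females for 13 Cyp2 genes with a limma adjusted p under 0.05 for the difference, from 2 arrays per sex and arm. The difference was 3.26 for Cyp2c23, 7.68 for Cyp2c29, 8.11 for Cyp2c40 (fitted, with both CRC males not well above background), 6.22 for Cyp2c67, 7.76 for Cyp2c68 and 7.78 for Cyp2c69. It was 5.96 for Cyp2d9, 5.78 for Cyp2d10, 4.22 for Cyp2d11, 5.74 for Cyp2d12, 6.74 for Cyp2d13, 6.62 for Cyp2d34 and 7.28 for Cyp2d37-ps. The 2 CRC males behind these values had the lowest colonocyte lists of the 31 arrays, at -5.56 and -3.13.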

How the results depend on the processing

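The numbers of arrays set the limits: 2 per sex and arm, 4 per group and 3 in CRC at 21 days, and dim genes such as Cyp2b13, Cyp2a5 and Cyp2a22 were near background. At 7 days the 17 called genes became 1 with only the arrays of that day, 1 with array weights and 1 without both CRC males, and the median of 0.94 became 0.23 with array weights and -0.091 without both CRC males, where Cyp2c40 turned to -0.68. Leaving out single arrays gave 2 to 20 called genes at 7 days, 1 to 2 at 2 days, 4 to 9 at 14 days, 0 to 1 at 21 days and 2 to 5 in the mean over 4 days. It gave 3 to 14 genes with an effect that differed between the sexes at 7 days and 0 to 12 at 14 days. At 2 days 2 genes were called with no filter, with only the arrays of that day or with array weights, at 14 days 11 with array weights, and at 21 days 1 with quantile normalization, 2 with no filter and 2 with array weights. At a log2 fold change of 1.5, an alternative added after the data had been seen, 0 genes were called at 2 days, 15 at 7 (1.86% of all genes rose), 3 at 14 (0.707%) and 0 at 21. Without both CRC + E171 females of 14 days Cyp2c66 was at -0.51, Cyp2e1 was called at -6.11 and Cyp2f2 at 2.73. The cause of these changes was not tested.

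Of the single gene values under the other settings 752 kept their side of the threshold, 10 passed it newly and 25 no longer did. Another 2 changed sign with a call in the reported fit or the alternative. Changes of sign in genes called in neither fit are among the 752. With scan day as a block 1, 12, 4 and 0 genes were called at 2, 7, 14 and 21 days. Within the single scan day that held both arms, 2 arrays against 2 and without a test, the median difference was 0.20, 0.83, 0.46 and 0.21. With slide as a random block the counts were 1, 17, 6 and 0. A replicate block of sex and replicate number gave 1, 19, 7 and 0. How many of all genes were called with these blocks was not counted. Of 15 pairs of arrays with the same day, sex and replicate number, 8 correlated above 0.1, with a range of -0.18 to 0.48. These mixed values do not settle whether the numbers pair the samples, and the reported fit took them as unpaired. The shift of the median over all genes from the reported fit was taken for the normalization, filter, brightest probe and deposited matrix settings. It was more than 0.1 under 1 of these, at -0.14 at 21 days in the deposited log2 matrix. The difference between the sexes at 21 days could not be computed without the lone CRC male.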

Other observations

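Genes of pancreatic acinar cells were high on 5 arrays of several groups, with the list of 11 tested genes at 5.43 in CRC male 2 of 2 days, 7.90 and 7.20 in CRC male 2 and female 1 of 7 days, 9.67 in CRC + E171 female 2 of 2 days and 9.78 in CRC + E171 female 2 of 21 days, and at 0.18 or less on the other arrays. The list of 9 smooth muscle genes ranged from -0.83 to 1.19 over the 31 arrays. CRC female 1 of 7 days, with the acinar list at 7.20, had the Cyp2c list at 0.02 and the Cyp2d list at 0.68.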
